A study of Mus musculus with 8 samples.

Results

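The nuclear genes examined here encode subunits of the mitochondrial respiratory chain and of the ATP synthase. They were taken by name: 46 symbols, matched to the identifiers of the table through the GENCODE M21 mouse annotation. A row was found for 45 of the 46 among the 54018 identifiers, and Cox4i1 is not analysed here. By complex the 45 comprised 18 genes of complex I, 4 of complex II, 6 of complex III, 10 of complex IV, 6 of complex V, and Cycs, which encodes cytochrome c. All 45 reached the expression filter, at least 1 FPKM (fragments divided by transcript kilobases and by library size) in at least 4 of 8 libraries, and so were among the 12890 genes tested.

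Polyadenylated RNA was measured in splenic mononuclear cells of leukaemic C57BL/6 mice. In 4 libraries the genotype was Kdm1aKD;Eµ-TCL1A (replicates 1, 2, 5 and 4, called knockdown), and in 4 it was Eµ-TCL1A alone (replicates 1 to 4, called control). Both groups thus carry the Eµ-TCL1A transgene, which drives the human TCL1A oncogene in B cells from an immunoglobulin heavy chain enhancer and models chronic lymphocytic leukaemia. The knockdown of Kdm1a, a histone lysine demethylase gene, is inducible with doxycycline. The sources used here do not say whether control mice also received doxycycline, in which cells the knockdown construct acts, or how old the mice were. The comparison asks how transcript levels in the leukaemic spleen differ when Kdm1a is lowered. No label ties a library to an animal, so the p-values reflect variation among libraries, some of which may be technical.

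Oxidative phosphorylation passes electrons from NADH through complex I, or from succinate through complex II, to ubiquinone, then through complex III and cytochrome c to complex IV, where oxygen is reduced. Complexes I, III and IV pump protons across the inner mitochondrial membrane, and complex V, the ATP synthase, uses the gradient to make ATP. Most subunits are encoded in the nucleus and imported, a few are encoded in mitochondrial DNA, and complex II is wholly nuclear. In lymphocytes the pathway is known for its induction when cells leave rest and divide, and in chronic lymphocytic leukaemia cells it is a major source of ATP.

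Kdm1a had 20.2, 21.0, 15.6 and 15.5 FPKM in knockdown replicates 1, 2, 5 and 4, against 24.2, 21.2, 24.1 and 31.1 FPKM in control replicates 1 to 4. The groups did not overlap, and the knockdown mean was 71.9% of the control mean (two-sided exact permutation p = 0.0286, the smallest that 70 assignments can give; limma adjusted p = 0.223). Depth, estimated from the steps between low values, lay between 40100000 and 47100000 fragments per library. A pair of libraries differed from the rest of their groups. Knockdown replicate 4 had a B cell marker level (mean of 8 genes) of 6.40 on the log2(FPKM + 1) scale, against 7.87 to 8.15 in the other 7 libraries, and control replicate 4 had the lowest share of FPKM on mitochondrially encoded genes, 7.47% against 9.94% to 15.1%. Xist was expressed in the 4 knockdown libraries and control replicate 1, and the Y-linked Ddx3y in the other 3 controls, so the sex of the mice and the group are nearly the same split and cannot be told apart.

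All 45 subunit genes had a positive log2 change in knockdown spleens, and none passed the test. The median log2 change was 0.41, with a range from 0.036 for Ndufa6 to 0.86 for Atp5g1, while the median over all 12890 genes tested was 0.13. With limma and a threshold of 0.05 on the adjusted p, 0 of 45 were called higher, where 1.63% of all genes were, and 0 were called lower, where 0.109% of all genes were (1.74% in either direction). At an unadjusted p under 0.05 there were 7 of 45, 15.6% of the subunit genes, against 19.2% of all genes. A positive log2 change was found for 63.7% of all genes, against 100% of the subunit genes. The groups did not overlap for 5 genes, Ndufs1, Ndufv1, Sdha, Uqcrc1 and Atp5g1, all higher in the knockdown libraries. Over all genes 11.2% were higher and 1.9% lower without overlap, so 5 of 45 is near that background.

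The extreme values of these genes lay mostly in knockdown replicate 4 and control replicate 4. Knockdown replicate 4 had the highest value of the 8 libraries for 43 of the 45 genes, against 30.7% of all genes, and control replicate 4 the lowest for 41, against 37.5% of all genes. Both held at once for 39 of the 45 and for 17.6% of all genes. Leaving out both libraries therefore had to lower the log2 change of those 39 genes. The fits without them are a description. The exceptions at the top were Ndufs8, highest in control replicate 2, and Ndufa6, highest in control replicate 3. Ndufs3, Ndufb10, Cox5a and Cox6a1 were lowest in control replicate 1. Without replicate 4 of both groups 27 of 45 genes kept a positive log2 change, beside 65.6% of all genes, and the median was 0.10, equal to that of all genes at this rounding. Then 2 of 45 had an unadjusted p under 0.05, against 15.3% of all genes, and 0 passed the adjusted threshold, against 0.931%. The 2 were Atp5g1 and Ndufv1. Leaving out knockdown replicate 4 alone gave a median of 0.24 with 44 of 45 positive, and control replicate 4 alone 0.28 with 40 of 45. After median-of-ratios scaling the median was 0.26 over the 45 genes and 0.0041 over all genes, and after quantile normalization it was 0.28 and −0.031, with 44 of 45 positive in each.

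**Figure D1:**
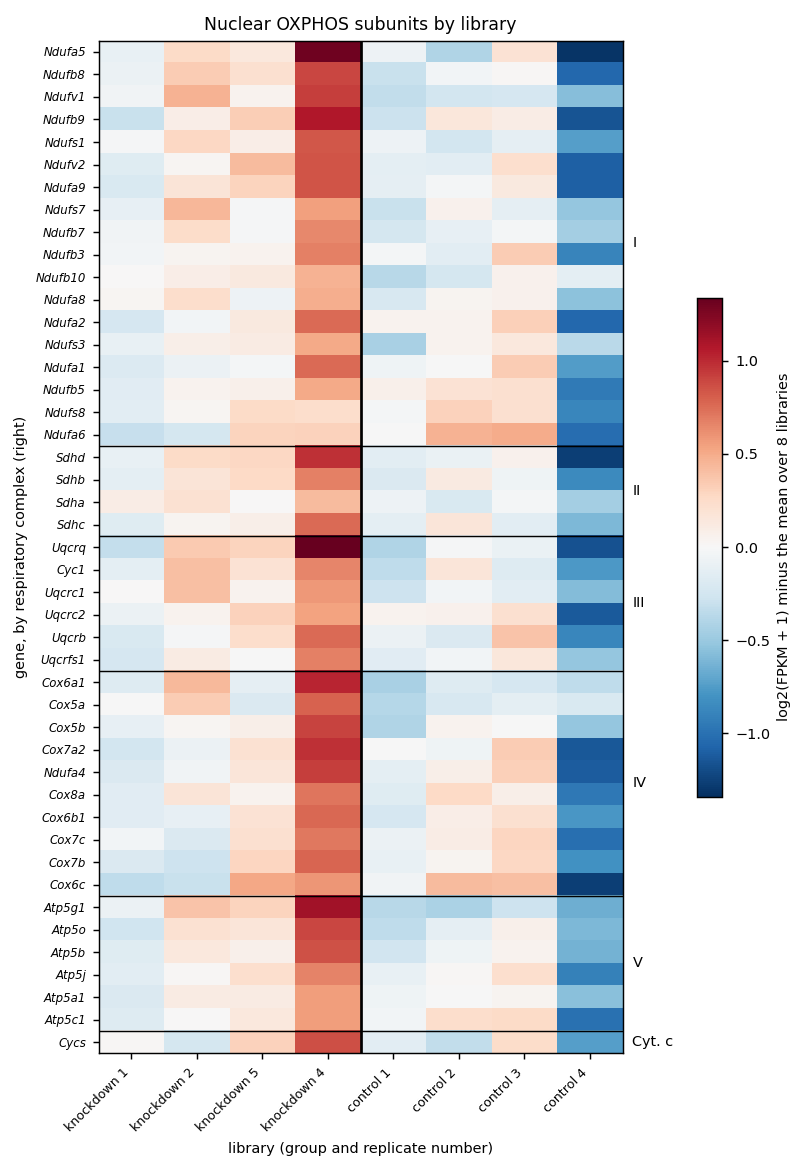
Each cell is the log2(FPKM + 1) of a gene in a library minus that gene's mean over the 8 libraries, with knockdown libraries on the left and control libraries on the right, genes grouped by complex. Knockdown replicate 4 is the highest column for 43 of 45 genes and control replicate 4 the lowest for 41, while the other 6 libraries differ less.

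Library by library, the 45 genes made up 0.776%, 0.924%, 0.933% and 1.36% of all FPKM in knockdown replicates 1, 2, 5 and 4. In control replicates 1 to 4 they made up 0.726%, 0.797%, 0.825% and 0.593%. The shares of knockdown replicate 1 and of control replicates 2 and 3 thus overlapped. The median deviation of a gene from its mean over the libraries was 0.76 on the log2 scale in knockdown replicate 4 and −0.81 in control replicate 4, against −0.14 to 0.14 in the other 6 libraries. Without mitochondrial, immunoglobulin and globin genes in the total, knockdown replicate 4 still had the largest share, 1.64%, and control replicate 4 the smallest, 0.728%. The median SD of log2(FPKM + 1) within a group was 0.41 over knockdown libraries and 0.45 over control libraries for these genes, and 0.32 and 0.30 for all genes. It was 0.20 in knockdown and 0.17 in control libraries without replicate 4 of each group, close to 0.22 and 0.19 for all genes.

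As a class these transcripts were abundant. Mean levels over the 8 libraries ran from 29.4 FPKM for Cycs to 537 FPKM for Atp5b, with a median of 109 FPKM, while the median gene tested had 12.9 FPKM. The lowest of the 45 stood at the 73.3rd percentile of all genes tested and the median at the 94.4th. FPKM is a level per transcript length, and on that scale complex IV had the highest median level (246 FPKM), then complex V (169.9 FPKM), complex III (109 FPKM), complex I (83.5 FPKM) and complex II (81.3 FPKM).

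Complex I, the NADH dehydrogenase, holds subunits of the NADH-oxidising tip, of the arm that reduces ubiquinone, and of the membrane arm. Its 18 genes had a median log2 change of 0.38, and 3 of them, Ndufv1, Ndufs1 and Ndufb8, had an unadjusted p under 0.05. Ndufv1 encodes the flavoprotein that takes electrons from NADH (ENSMUSG00000037916, chromosome 19, 4007384 to 4012806, minus strand, GRCm38). It had 45.3, 65.0, 48.4 and 89.8 FPKM in knockdown replicates 1, 2, 5 and 4, against 37.2, 39.5, 40.1 and 31.3 FPKM in control replicates 1 to 4. Every knockdown library lay above every control library, and the log2 change was 0.69 ± 0.23 (SE; limma adjusted p = 0.164). Without replicate 4 of both groups it was 0.42 (adjusted p = 0.288).

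Ndufs1, which encodes the largest iron-sulfur subunit of the same tip, had 38.7, 47.6, 41.6 and 70.3 FPKM in the knockdown libraries, against 37.2, 32.9, 35.9 and 23.0 FPKM in the controls, in the same library order. The groups were separate by a small margin between knockdown replicate 1 and control replicate 1, with a log2 change of 0.59 ± 0.23 (SE; adjusted p = 0.219). Ndufb8, of the membrane arm, had 92.8, 124.6, 114.1 and 183.4 FPKM in knockdown libraries, against 79.4, 95.3, 99.2 and 46.7 FPKM in control libraries. Here knockdown replicate 1 lay below control replicates 2 and 3, and the log2 change was 0.69 ± 0.29 (SE; adjusted p = 0.236). Ndufb8 overlaps a predicted gene annotated on its own strand, which makes its level less certain.

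The largest log2 change of complex I was that of Ndufa5, an accessory subunit of the peripheral arm. Its levels were 55.0, 70.8, 65.3 and 147 FPKM in knockdown libraries, against 56.2, 44.3, 67.5 and 23.2 FPKM in the controls. Only knockdown replicates 2 and 4 exceeded all controls, and the log2 change was 0.80 ± 0.38 (SE; adjusted p = 0.286), or 0.19 without replicate 4 of both groups. Ndufa9, an accessory subunit near the ubiquinone site and one of the 5 lowest genes of the 45, averaged 49.2 ± 15.6 FPKM in knockdown libraries and 33.7 ± 10.99 FPKM in control libraries (SD, n = 4 each). Its log2 change was 0.56 and became 0.10 without replicate 4 of both groups.

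Some complex I genes stood apart from the common sign once both replicate 4 libraries were left out. Ndufa6, an accessory subunit of the LYR motif family, named here after its values were seen, had 121.8, 127.9, 186.0 and 187.7 FPKM in knockdown libraries and 150.4, 208.3, 212.7 and 73.7 FPKM in control libraries. Its log2 change was 0.036 with all libraries and −0.40 without both, and its knockdown mean was 0.966 of the control mean. Ndufa1, an X-linked accessory subunit that is needed for assembly, had 81.3, 87.8, 91.0 and 157 FPKM in knockdown libraries, against 89.0, 92.3, 117 and 54.9 FPKM in control libraries. The log2 change of Ndufa1 was 0.23, and −0.19 without both replicate 4 libraries. Ndufb3, a small membrane arm subunit, had 0.36 and −0.042 on the same scale. In all, 12 of the 18 genes kept a positive change in the 6 remaining libraries, with a median of 0.11.

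Complex II, succinate dehydrogenase, also serves the citric acid cycle. Its 4 genes had log2 changes from 0.36 to 0.71, with a median of 0.43, and 4 of 4 stayed positive without replicate 4 of both groups, with a median of 0.17. Sdha, the catalytic flavoprotein subunit, had 87.5, 93.9, 81.9 and 109 FPKM in knockdown libraries, against 77.8, 70.6, 80.1 and 59.1 FPKM in control libraries. The groups did not overlap, and the log2 change was 0.37 ± 0.17 (SE; adjusted p = 0.272). Sdhd, which anchors the complex in the membrane, had 72.9, 93.8, 95.1 and 155 FPKM in knockdown libraries and 70.6, 73.5, 81.6 and 32.2 FPKM in control libraries. Knockdown replicate 1 lay within the range of the controls, and the log2 change of 0.71 ± 0.33 (SE; adjusted p = 0.272) was 0.20 in the 6 remaining libraries. For Sdhc, the other anchor subunit, the change was 0.36 with all libraries and 0.023 with the 6.

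Complex III, the cytochrome bc1 complex, had a median log2 change of 0.46 over 6 genes, and 3 of these, Uqcrc1, Cyc1 and Uqcrq, had an unadjusted p under 0.05. Uqcrc1, a core subunit (ENSMUSG00000025651, chromosome 9, 108936633 to 108949623, plus strand), had 107, 141.5, 110.1 and 159.5 FPKM in knockdown libraries, against 87.8, 104, 96.9 and 70.9 FPKM in control libraries. The groups did not overlap, and the log2 change was 0.52 ± 0.20 (SE; adjusted p = 0.208). Uqcrq, a small subunit in the membrane part, had 118, 188.6, 182.6 and 375.5 FPKM in knockdown libraries, against 112, 146, 138.6 and 65.6 FPKM in control libraries. Its high value in knockdown replicate 4 carried much of a log2 change of 0.84 ± 0.37 (SE; adjusted p = 0.257), which was 0.28 without both replicate 4 libraries. Cyc1, which encodes cytochrome c1, averaged 129 ± 29.6 FPKM in knockdown libraries and 88.1 ± 23.0 FPKM in control libraries (SD, n = 4 each), with a log2 change of 0.56. Without both replicate 4 libraries 3 of the 6 genes were positive, with a median of 0.13.

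Complex IV, cytochrome c oxidase, had positive log2 changes for 10 of 10 genes, with a median of 0.40, none with an unadjusted p under 0.05. This was the complex whose genes most often changed sign without both replicate 4 libraries, since 3 of 10 stayed positive and the median became −0.077. Cox6a1, the ubiquitous form of subunit VIa, had 220.1, 337.5, 229.4 and 506.1 FPKM in knockdown libraries, against 183.8, 220.8, 212.7 and 196 FPKM in control libraries. Only knockdown replicate 1 lay within the control range, and the log2 change was 0.58 ± 0.27 (SE; adjusted p = 0.277). Cox5a, a subunit that faces the matrix, had 121, 153.5, 106 and 210.3 FPKM in knockdown libraries and 92.7, 105, 110.7 and 105.5 FPKM in control libraries, with a log2 change of 0.47. Cox6a1 and Cox5a kept changes of 0.33 and 0.29 in the 6 remaining libraries, with no test passed.

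Cox5b, on the matrix side of the complex, kept a change of 0.12 there, and the other 7 genes had negative values. Cox6c, a small membrane subunit, had 189.4, 194.3, 342.2 and 362.3 FPKM in knockdown libraries, against 232.3, 322.5, 317 and 99.2 FPKM in control libraries, so that both groups held low and high libraries. The log2 change of Cox6c was 0.24 with all libraries and −0.30 without both replicate 4 libraries. Cox8a, the most abundant gene of the complex, averaged 349 ± 97.2 FPKM in knockdown libraries and 272.5 ± 88.6 FPKM in control libraries (SD, n = 4 each), with changes of 0.39 and −0.040. Cox7b, a small X-linked subunit, had changes of 0.30 and −0.13. Ndufa4, named for complex I but a subunit of complex IV, averaged 278 ± 107 FPKM in knockdown libraries and 210.4 ± 76.6 FPKM in control libraries, with changes of 0.42 and −0.12.

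In complex V, the ATP synthase, 6 genes had a median log2 change of 0.42. Atp5b, the catalytic beta subunit and the most abundant of the 45 transcripts, had 460.4, 567.1, 541.6 and 931 FPKM in knockdown libraries, against 431.4, 495.2, 534.3 and 331.5 FPKM in control libraries. Knockdown replicate 1 lay within the range of the controls and the other 3 knockdown libraries above it, and the log2 change was 0.45 ± 0.27 (SE; adjusted p = 0.381). Atp5b overlaps annotated small RNA genes on its own strand. Atp5a1, the alpha subunit, averaged 322.9 ± 72.0 FPKM in knockdown libraries and 261.9 ± 46.01 FPKM in control libraries (SD, n = 4 each), with a log2 change of 0.29, or 0.019 without both.

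The smallest p of the 45 belonged to Atp5g1, a gene for subunit c, which forms the rotating ring in the membrane (ENSMUSG00000006057, chromosome 11, 96068852 to 96075670, minus strand). It had 127.6, 175.7, 165.4 and 295.4 FPKM in knockdown libraries, against 103.9, 99.9, 111.3 and 84.9 FPKM in control libraries. Every knockdown library was above every control library. The log2 change was 0.86 ± 0.25 (SE; limma adjusted p = 0.129), and 0.56 (adjusted p = 0.159) without both replicate 4 libraries. Over the fits that left out 1 library each it was between 0.63 and 1.03, with adjusted p between 0.0709 and 0.277, and with the proliferation marker level as a covariate it was 0.28. Near-identical copies of its sequence summed to 4.65% of its own level.

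**Figure D2:**
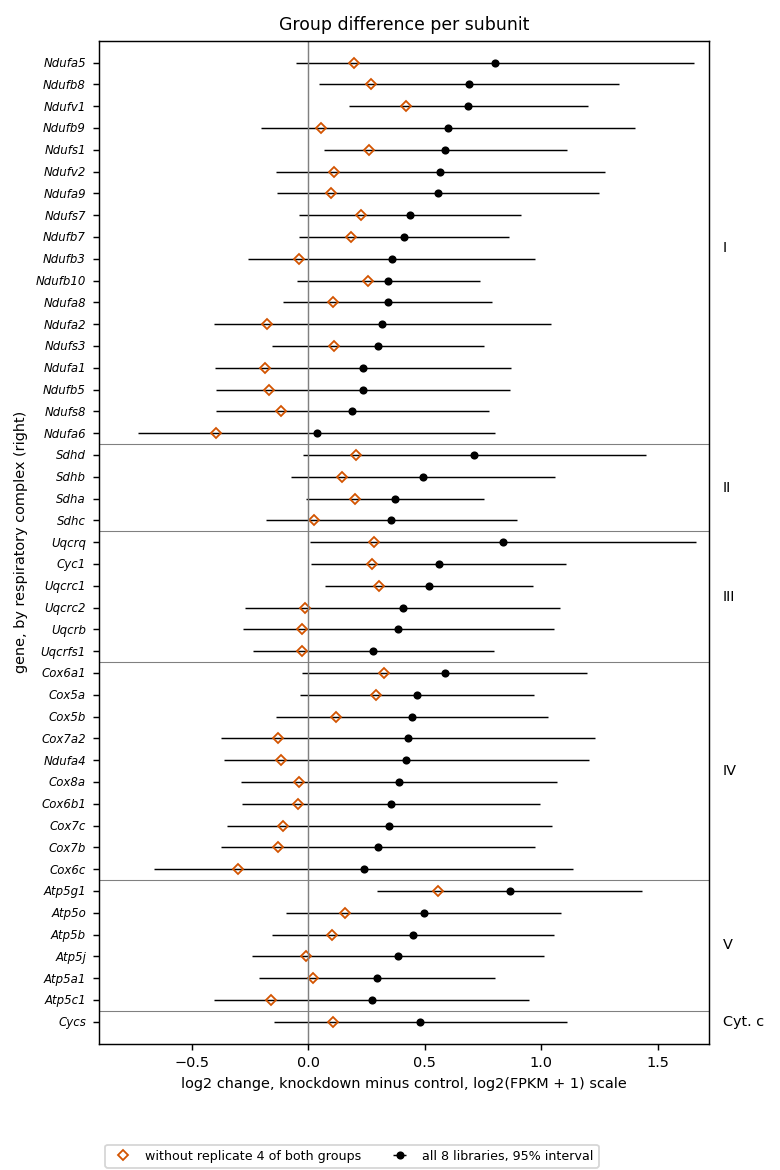
Black points are log2 changes, knockdown minus control, on the log2(FPKM + 1) scale with 95% limma intervals over all 8 libraries, and open diamonds are the changes without replicate 4 of both groups. All 45 points lie to the right of 0, from 0.036 to 0.86, while 27 of the 45 diamonds do.

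Cycs, the mobile electron carrier between complexes III and IV, had 28.2, 23.6, 34.8 and 51.7 FPKM in knockdown libraries, against 25.2, 22.1, 33.3 and 16.3 FPKM in control libraries. The groups overlapped, with a log2 change of 0.48 ± 0.28 (SE; adjusted p = 0.37) and of 0.10 without both replicate 4 libraries. Cycs was the lowest of the 45. Transcripts of other genes with at least 95% identity over at least 100 bases summed to 50.2 FPKM, or 171% of its level. That was the highest such percentage of the 45, and nearly all of it came from Acbd6, at 49.8 FPKM for the whole gene. How many fragments Acbd6 and Cycs could share was not tested, so the level of Cycs remains uncertain.

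Subunit c is encoded by 3 genes that give the same mature protein from precursors with different import sequences, so their share of the sum can be compared within a library. Atp5g1 made up 20.7%, 23.6%, 24.6% and 28.2% of the summed FPKM of Atp5g1, Atp5g2 and Atp5g3 in knockdown replicates 1, 2, 5 and 4, against 20.4%, 14.7%, 18.6% and 16.9% in control replicates 1 to 4. The groups were separate, though knockdown replicate 1 and control replicate 1 were close. The share averaged 24.3 ± 3.08% in knockdown libraries and 17.7 ± 2.45% in control libraries (SD, n = 4 each). The difference of 6.61 percentage points had a two-sided exact permutation p of 0.0286, the smallest the design can give. Leaving out any 1 library gave 5.30 to 7.79 points. The exact p was then 0.0286 without knockdown replicate 1, 2 or 5, and 0.0571 without knockdown replicate 4 or any 1 control. Atp5g1 was singled out with its values in these libraries already known, so this p is a description.

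The share of Atp5g2 averaged 31.8 ± 6.31% in knockdown libraries and 42.1 ± 9.72% in control libraries, and that of Atp5g3 44.0 ± 4.82% and 40.2 ± 9.53%, with overlapping groups for both. Atp5g2 itself had 220.8, 213, 255.9 and 256.6 FPKM in knockdown libraries and 227, 357.6, 251.3 and 146.6 FPKM in control libraries, a log2 change of 0.011. Atp5g3 had a log2 change of 0.56 ± 0.25 (SE; adjusted p = 0.27). Without replicate 4 of both groups the mean share of Atp5g1 was 23.0% in knockdown libraries and 17.9% in control libraries, a difference of 5.05 points (exact p = 0.1, the smallest for 3 against 3).

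**Figure D3:**
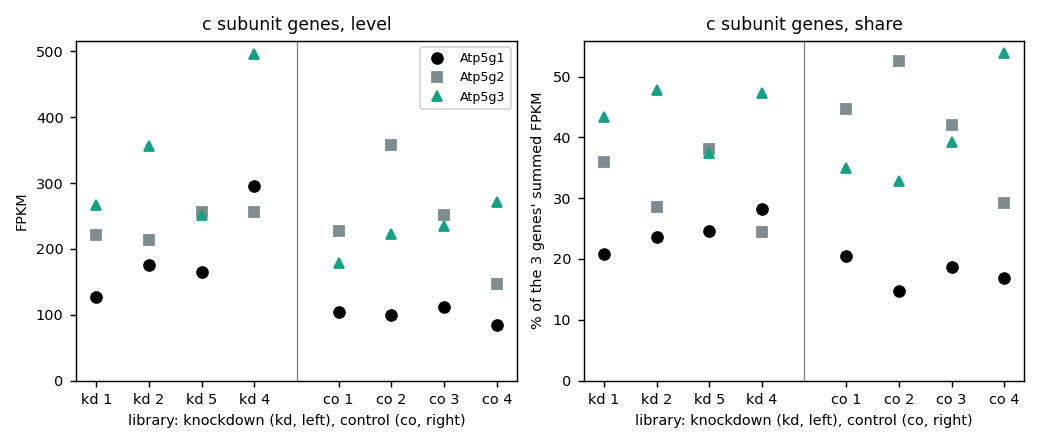
The left panel gives the FPKM of Atp5g1 (circles), Atp5g2 (squares) and Atp5g3 (triangles) in each library, the right panel each gene's percentage of their summed FPKM, with knockdown libraries (kd) left of control libraries (co). The share of Atp5g1 lies between 20.7% and 28.2% in knockdown libraries and between 14.7% and 20.4% in control libraries.

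The proportion of each subunit in its complex was also compared. Of 44 genes that share a complex with another of the 45, 3 (6.82%) had a share of their complex's summed FPKM that did not overlap between groups. For levels, 11.2% of all genes were higher and 1.9% lower without overlap. A share is a different measure from a level, and no background of shares was computed, so these rates are not directly comparable. Ndufb8 made up 7.56 ± 0.470% of complex I in knockdown libraries and 6.12 ± 0.366% in control libraries (SD, n = 4 each), and Atp5g1 11.1 ± 0.876% and 8.24 ± 1.11% of complex V. Uqcrfs1, the Rieske iron-sulfur subunit, made up 10.1 ± 0.423% of complex III in knockdown libraries and 12.1 ± 1.35% in control libraries. These shares do not depend on the library total.

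Log2 changes are given here by coding length, with no test. Of the 22 with longer coding sequences (516 to 2181 bases), 17 had a positive log2 change without replicate 4 of both groups, with a median of 0.11. Of the 23 with shorter ones (189 to 507 bases), 10 did, with a median of −0.028, where 65.6% of all genes did. Across the 45 genes Spearman's rho between coding length and log2 change was 0.42 in these libraries and 0.17 in all 8, given as a description since genes of 1 library share its depth and size selection. Over 10986 protein-coding genes it was 0.087 in the 6 libraries and −0.15 in all 8. The part of transcript length in the results was not tested.

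Several marker lists also held extreme values in knockdown replicate 4, in control replicate 4 or in both. Of the 10 proliferation markers, 10 were highest in knockdown replicate 4 and 6 lowest in control replicate 4, and none was at 0. Their summed level was 545 to 1932 FPKM in knockdown libraries and 433.5 to 577 FPKM in control libraries, and their mean log2(FPKM + 1) was 7.50 in knockdown replicate 4, 5.65 to 6.34 in the other knockdown libraries and 5.22 to 5.67 in the controls. In control replicate 4 this mean was 5.22, close to 5.32 in control replicate 1. Mki67 and Rrm2 were higher in control replicate 4 than in the other controls. They had 82.3 and 79.1 FPKM there, against 44.1 to 51.2 FPKM and 39.9 to 57.3 FPKM. All 12 erythroid markers in the table were highest in knockdown replicate 4, and none was at 0. They summed to 29328 FPKM there, 904 to 2456 FPKM in the other knockdown libraries and 3104 to 8345 FPKM in the controls. The erythroid level thus set knockdown replicate 4 apart but not control replicate 4.

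The 8 B cell markers were all detected in every library, so the cell type of the leukaemia had its defining markers present, and 8 of 8 were lowest in knockdown replicate 4. They summed to 1237 FPKM there, to 3076 to 3251 FPKM in the other knockdown libraries and to 3501 to 4173 FPKM in the controls. Of 10 monocyte and macrophage markers, 7 were highest in knockdown replicate 4 and 7 lowest in control replicate 4, with sums of 465 to 871 FPKM in knockdown libraries and 133 to 338 FPKM in control libraries, none at 0. In control replicate 4 all 6 NK cell markers and 6 of 8 T cell markers were at their lowest. The remaining lists held markers of neutrophils, megakaryocytes and plasma cells. Of 10 neutrophil markers 9 were tested. The 3 secondary granule genes Ngp, Camp and Ltf were called lower (limma adjusted p = 0.0189, 0.0132 and 0.0485), as were 0.109% of all genes. The 3 primary granule genes Elane, Mpo and Prtn3 went the other way, with log2 changes of 1.63, 2.05 and 1.93, none called. The 10 neutrophil markers summed to 30.8 to 242 FPKM in knockdown libraries and 69.3 to 469 FPKM in control libraries, with Ly6g listed at 0 in 1 library. Of 7 megakaryocyte and platelet markers 5 were tested and 2 called higher, Pf4 and Itga2b (limma adjusted p = 0.0311 and 0.0454), as were 1.63% of all genes. A positive log2 change was found for 4 of the 5, while Ppbp had one of −0.63, not called. The 7 markers summed to 20.7 to 64.0 FPKM in knockdown libraries and 6.66 to 14.6 FPKM in control libraries. Without replicate 4 of both groups Camp was past the threshold (adjusted p = 0.0471), and Ngp, Ltf, Pf4 and Itga2b were not (0.0530, 0.162, 0.0610 and 0.131). All 7 plasma cell markers had a negative log2 change and none was called. For 4 of them the groups did not overlap, where 1.9% of all genes were lower without overlap. Of the 7, 5 were lowest in knockdown replicate 4, and the sums were 453 to 967 FPKM in knockdown libraries and 941 to 1635 FPKM in control libraries. In such bulk samples fewer cells of a type and less RNA per cell cannot be told apart, and the part of cell composition in the subunit levels was not tested beyond the fits below.

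With the proliferation level as a covariate, a fit added after the data were seen, 18 of 45 genes had a positive log2 change, where 69.6% of all genes did, and the median was −0.055, with a range from −0.34 for Ndufa6 to 0.28 for Atp5g1. No gene was called there (0.171% of all genes were). With the B cell level as a covariate 40 of 45 were positive, where 71.4% of all genes were, and the median was 0.16, again with 0 called (0.706% of all genes were). With the erythroid level as a covariate 45 of 45 were positive, where 63.9% of all genes were, and the median was 0.40. In that fit 3 genes were called higher, Atp5g1 (limma adjusted p = 0.0189), Ndufv1 (0.0238) and Cox6a1 (0.0447), where 7.89% of all genes were called higher. The covariates are themselves measured in these libraries and differ between the groups.

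**Figure D4:**
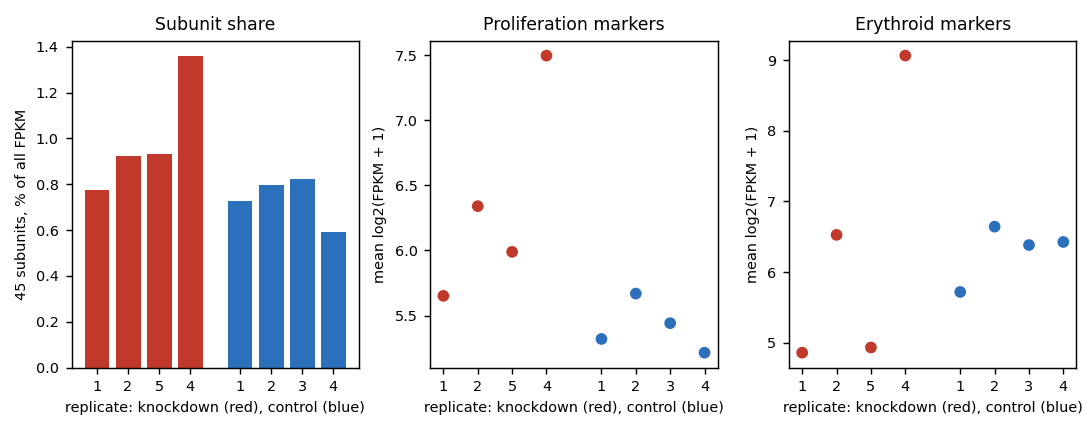
The left panel gives the share of all FPKM taken by the 45 genes in each library, the middle and right panels the mean log2(FPKM + 1) of the proliferation and erythroid markers, knockdown libraries left of control libraries. Knockdown replicate 4 is highest in all 3 panels (1.36%, 7.50 and 9.06), and control replicate 4 is lowest in the left and middle panels (0.593% and 5.22). In the middle panel control replicate 1 is close, at 5.32.

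Promoters of these genes are known to hold sites for a few factors of mitochondrial gene expression, and since the genes moved together across libraries their promoters were searched. RefSeq windows (build GRCm38.p6, 250 bases before to 50 after the start) were matched for 35 of the 45 genes, 38 windows in all, on both strands. The motif of NRF1, searched as GCGCNTGCG, was in 31.6% of these windows, against 13.5% of 11657 windows of tested genes and 6.31% of all 32851 windows. The ETS motif CCGGAAG, of the kind bound by GABPA, was in 23.7%, against 18.5% and 8.86%. The YY1 motif AAGATGGCG was in 7.89%, against 3.21% and 1.40%, and the ERR alpha motif TCAAGGTCA in 2.63%, against 0.300% and 0.423%. None of the 4 motifs contains another. Of the 38 windows, 55.3% held at least 1 of the 4, against 31.3% and 15.3%. The NRF1 and YY1 motifs had first been searched in forms 1 base longer, and were shortened after that result was seen, so that the letters could be printed. In the longer forms NRF1 was in 26.3% of the windows, against 10.2% and 4.603%, YY1 in 7.89%, against 2.15% and 0.852%, and at least 1 of the 4 in 19 of the 38 windows, against 28.2% and 13.5%. The windows of Ndufa5 overlap and hold the same NRF1 match, which is counted for each window. The windows of tested genes were not matched for expression level. A match is a description of letters only.

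The windows of 4 genes described above and of Atp5g3 are printed here, chosen to compare windows rich in these motifs with the window of the gene with the smallest p. They run along the strand of the gene, with each match in capitals on whichever strand it was found. Uqcrc1 (chr9:108936398-108936697, plus strand) has NRF1 matches at 2 places just after its start, Sdhd (chr9:50603800-50604099, minus strand) has an NRF1, an ETS and an ERR alpha match, and Cox6a1 (chr5:115348909-115349208, minus strand) has NRF1 matches at 2 places and an ETS match. Atp5g1 (chr11:96075582-96075881, minus strand) has none of the 4 motifs, and Atp5g3 (chr2:73911277-73911576, minus strand) has an ERR alpha and an NRF1 match.
Uqcrc1: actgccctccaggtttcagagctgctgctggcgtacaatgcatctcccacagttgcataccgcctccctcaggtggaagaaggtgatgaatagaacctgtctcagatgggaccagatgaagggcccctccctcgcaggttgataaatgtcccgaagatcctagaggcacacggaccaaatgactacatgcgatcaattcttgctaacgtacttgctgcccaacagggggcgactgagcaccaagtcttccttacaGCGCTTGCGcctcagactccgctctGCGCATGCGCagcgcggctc
Sdhd: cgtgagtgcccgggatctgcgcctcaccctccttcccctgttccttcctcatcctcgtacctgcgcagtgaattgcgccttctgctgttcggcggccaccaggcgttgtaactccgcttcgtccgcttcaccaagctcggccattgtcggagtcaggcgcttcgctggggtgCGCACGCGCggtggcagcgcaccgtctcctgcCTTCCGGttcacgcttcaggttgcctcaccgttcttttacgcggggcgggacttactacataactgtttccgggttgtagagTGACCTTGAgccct
Cox6a1: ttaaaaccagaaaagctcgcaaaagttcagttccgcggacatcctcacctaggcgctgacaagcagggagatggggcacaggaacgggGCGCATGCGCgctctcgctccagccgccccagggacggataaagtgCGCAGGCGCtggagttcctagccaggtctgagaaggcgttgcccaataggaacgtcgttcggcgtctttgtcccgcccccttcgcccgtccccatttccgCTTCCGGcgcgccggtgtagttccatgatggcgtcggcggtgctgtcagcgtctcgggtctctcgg
Atp5g1: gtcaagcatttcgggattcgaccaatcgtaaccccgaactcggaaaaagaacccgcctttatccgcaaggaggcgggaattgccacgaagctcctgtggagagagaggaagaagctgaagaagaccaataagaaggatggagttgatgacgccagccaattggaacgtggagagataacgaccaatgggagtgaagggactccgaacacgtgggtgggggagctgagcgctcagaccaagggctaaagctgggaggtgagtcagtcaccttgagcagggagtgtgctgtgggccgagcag
Atp5g3: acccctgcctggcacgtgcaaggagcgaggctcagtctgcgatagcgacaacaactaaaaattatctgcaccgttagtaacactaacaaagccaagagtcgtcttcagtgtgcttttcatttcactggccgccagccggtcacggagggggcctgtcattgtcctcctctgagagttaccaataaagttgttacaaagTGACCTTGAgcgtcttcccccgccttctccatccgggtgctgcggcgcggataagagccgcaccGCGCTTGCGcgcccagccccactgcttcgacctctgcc
Genes with and without these letters were among both the larger and the smaller changes. Atp5g1, without a match, had a log2 change of 0.86, Sdhd, with 3, one of 0.71, and Ndufa6, with an NRF1 match, one of 0.036.

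Transcripts of the factors themselves had a smaller median change. Of 14 regulators listed, 13 were tested and 0 called, with a median log2 change of 0.15 and 8 of 13 positive. Nrf1, the transcription factor of the motif above, had 20.1, 25.3, 27.3 and 30.7 FPKM in knockdown libraries, against 21.2, 24.6, 19.1 and 18.2 FPKM in control libraries. The groups overlapped, with a log2 change of 0.30 (adjusted p = 0.383). Tfb1m, which methylates mitochondrial ribosomal RNA, had 0.35 on the same scale (adjusted p = 0.461).

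In the rest of the pathway no gene passed the test either. Of 125 other nuclear genes listed here and tested, 15 were higher and 0 lower without overlap. Over all genes these shares were 11.2% and 1.9%, so 15 of 125 is near that background. Of 34 other nuclear subunits of complexes I, III, IV and V, 0 were called, 33 had a positive log2 change, and the median was 0.42, while 17 of 34 were positive without replicate 4 of both groups. Among them Ndufa10 and Ndufa12 of complex I had log2 changes of 0.51 and 0.52, and Uqcr11 of complex III one of 0.75, while Cox7a2l, a factor of supercomplex assembly, had 0.049 and −0.24 without both. Of 49 assembly factors 0 were called and 40 were positive, with a median of 0.24. Coa7, an assembly factor of complex IV, averaged 8.69 ± 2.88 FPKM in knockdown libraries and 4.56 ± 0.637 FPKM in control libraries (SD, n = 4 each). Its groups did not overlap, with a log2 change of 0.77 (adjusted p = 0.131). Lrpprc, which stabilises mitochondrial mRNAs, had 0.62 (adjusted p = 0.143). Coa7 had 0.28 and Lrpprc 0.32 with the proliferation covariate.

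Outside the 45 genes, Atpif1 and Cox6b2 had larger log2 changes than any of them. Atpif1, the inhibitor that stops the ATP synthase from running in reverse, had 138, 223.6, 209.6 and 746 FPKM in knockdown libraries, against 76.4, 95.8, 92.5 and 47.7 FPKM in control libraries. The groups did not overlap, and the log2 change was 1.79 ± 0.47 (SE; adjusted p = 0.0981). Atpif1 is also known for a role in haem synthesis in zebrafish and mouse red cell precursors. The library with its highest value had the highest erythroid level. The part of that level was not tested beyond the erythroid covariate fit, whose value for Atpif1 is not given here. Without both replicate 4 libraries the log2 change of Atpif1 was 1.08 (adjusted p = 0.0704). Cox6b2, the testis form of subunit VIb, had 19.7, 36.0, 19.9 and 95.02 FPKM in knockdown libraries, against 9.02, 7.62, 8.81 and 10.5 FPKM in control libraries. These groups were also separate, with a log2 change of 1.82 ± 0.44 (SE; adjusted p = 0.0761), or 1.41 (adjusted p = 0.0561) without both. With the proliferation level as a covariate the log2 changes were 0.52 for Atpif1 and 0.71 for Cox6b2, neither of them called. Of 9 tissue forms of subunits 3 were tested, and the muscle form Cox6a2 averaged 2.38 ± 0.480 FPKM in knockdown libraries and 1.77 ± 0.465 FPKM in control libraries.

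Idh3a, the catalytic subunit of the NAD-linked isocitrate dehydrogenase, had the smallest adjusted p of all pathway genes listed. It had 31.8, 55.6, 47.6 and 94.6 FPKM in knockdown libraries, against 23.7, 23.5, 23.6 and 17.98 FPKM in control libraries. All knockdown libraries lay above all controls, with a log2 change of 1.23 ± 0.29 (SE; adjusted p = 0.0749), and 0.86 (adjusted p = 0.116) without both replicate 4 libraries, or 0.50 with the proliferation covariate. The citric acid cycle list had a median of 0.45 over 13 genes, all positive and 0 called, with Dlst, of the oxoglutarate dehydrogenase complex, at 0.57. The list of general mitochondrial genes had a median of 0.57 over 13 genes, also all positive and 0 called. Vdac1, the outer membrane pore, had 77.6, 106.8, 68.6 and 137.7 FPKM in knockdown libraries, against 47.7, 58.0, 55.1 and 54.6 FPKM in control libraries. The groups did not overlap, with a log2 change of 0.80 (adjusted p = 0.123), and Tomm40, the import pore, had 0.66 (adjusted p = 0.143). With the proliferation covariate the values were 0.32 for Vdac1 and 0.27 for Tomm40.

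**Figure D5:**
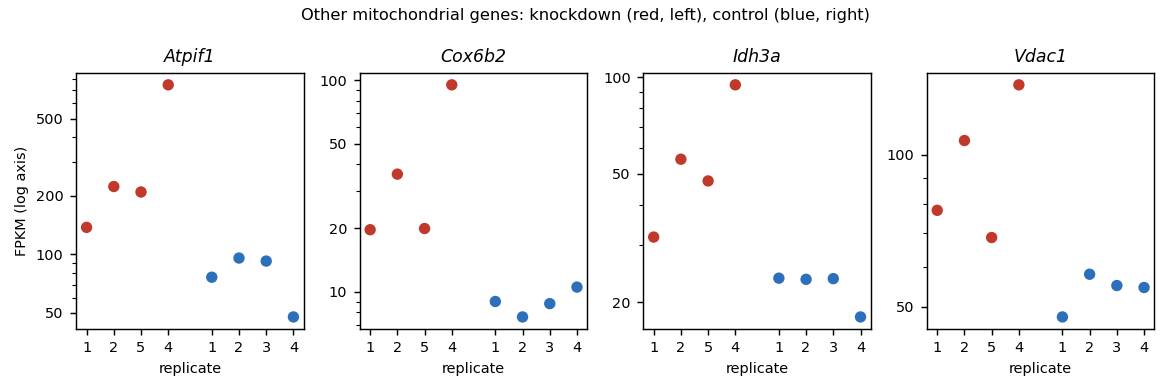
FPKM per library on a log axis for Atpif1, Cox6b2, Idh3a and Vdac1, knockdown libraries left of control libraries. In each panel every knockdown library lies above every control library, by the smallest margin for Vdac1 and with the highest value in knockdown replicate 4. Each gene has the smallest p of its list, so the separation partly reflects that choice.

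Of the 13 subunits encoded in mitochondrial DNA 0 were called and 11 had a positive log2 change, with a median of 0.25. In 10 of the 13 the lowest library was control replicate 4, whereas knockdown replicate 4 was highest in 3. Without both replicate 4 libraries their median was −0.061. For mt-Nd2, of complex I, the log2 change was 0.57 (adjusted p = 0.394), and for mt-Co3 it was −0.46 (adjusted p = 0.406). These levels are uncertain. Adjacent and overlapping genes were listed very unequally, with mt-Atp8 at 23814 ± 5145 FPKM in knockdown libraries and 20853 ± 11466 FPKM in control libraries, but mt-Atp6, which overlaps it, at 4.21 ± 0.979 FPKM and 4.47 ± 1.28 FPKM (SD, n = 4 each).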

How the data were processed

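The authors deposited FPKM values, 54018 identifiers by 8 libraries. CASAVA and Cufflinks are named, without versions, in the submitters' processing notes. The aligner, the build, the annotation and the strand setting were not stated in labels or headers. FPKM depends on transcript length and on the library's most abundant transcripts, and an exact 0 can be a failed estimate. Identifiers were matched to GENCODE M21 (GRCm38), which named 53865.

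Genes reaching 1 FPKM in 4 or more libraries were tested as log2(FPKM + 1) with limma 3.58.1 (trend) in R 4.3.3. The p-values were adjusted over all 12890 genes (Benjamini-Hochberg; threshold 0.05). Fold changes on this scale understate those of low genes. No covariate was used. Single shares and Kdm1a were tested by exact permutation (two-sided). Depth was estimated from low values, of which 98.2% to 99.2% lay within 0.1 of a whole multiple of 1 fragment. Near-identical copies were found with BLAST 2.17.0.

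The subunit genes, lists and motifs were chosen with earlier results of these data known. Named were the 12 subunit genes with the smallest p, the extremes of each complex, the 5 highest and 5 lowest levels, fixed genes (Ndufa4, Cycs, Sdha, Atp5g1, Ndufa1, Cox7b, Atp5g2, Atp5g3) and 2 genes of smallest p per other list. Alternatives changed the pseudocount, filter, scaling, trend, weights, covariates, libraries and replicate block.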

Additional observations from a re-analysis of the deposited data

Results flagged for a closer look

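Of 124 sets of 4 values looked at, 11 held 1 library far from the other 3 of its group by Dixon's criterion. Chance gives about 1 in 20 for independent sets of normal values. These sets come from the same 8 libraries and move together, so the count cannot be judged against that rate. In knockdown replicate 4 the high values were Ndufa1 at 157 FPKM (81.3 to 91.0 FPKM in the other knockdown libraries), Ndufa5 at 147 FPKM (55.0 to 70.8 FPKM), Ndufb3 at 75.8 FPKM (46.1 to 48.6 FPKM) and Atpif1 at 746 FPKM (138 to 223.6 FPKM). The B cell marker level of the same library was low, 6.40 on the log2 scale against 7.87 to 7.97. Cox7a2l was high in knockdown replicate 5, at 244 FPKM against 185.5 to 190.9 FPKM.

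In control replicate 4 low values were found for Dlst at 45.7 FPKM (48.2 to 48.6 FPKM in the other controls), Idh3a at 17.98 FPKM (23.5 to 23.7 FPKM), Sdhaf4, an assembly factor of complex II, at 9.17 FPKM (20.3 to 22.2 FPKM) and Tfb1m at 5.19 FPKM (8.45 to 9.02 FPKM). Tomm40 was high there, at 30.9 FPKM against 27.4 to 27.9 FPKM. Of the 11 sets, 5 belong to knockdown replicate 4 and 5 to control replicate 4.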

How the results depend on the processing

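No subunit gene was called in the fits that changed the pseudocount (0.1 or 5), filter, scaling, trend, weights or libraries, nor with B cell, sex or proliferation covariates. With the erythroid covariate 3 were called higher. Other pathway genes called higher numbered 6 with array weights, 10 with the erythroid covariate, and 0 to 2 without 1 library (Idh3a and Cox6b2 without knockdown replicate 1, Lyrm7 without 5, Cox6b2 without 4). Over all genes 224 were called, 1154 with the erythroid covariate, 761 with array weights, 8 to 333 without 1 library, 120 without replicate 4 of both groups, 131 and 126 after median-of-ratios and quantile scaling, 91, 22 and 2 with B cell, proliferation and sex covariates, 71 at a mean of at least 5 FPKM, 24 with a pseudocount of 5, and 2 with no filter. The subunit median was 0.24 to 0.52 without 1 library and 0.14 with array weights. That of complex IV was −0.0055 with array weights and −0.077 without replicate 4 of both groups. With the proliferation covariate, added after seeing the data, the medians were −0.055 over all subunit genes, 0.00056 for complex III, −0.16 for complex IV and −0.097 for complex V. The Atp5g1 share difference was 5.30 to 7.79 points without 1 library (exact p up to 0.0571, where the smallest possible is 0.0286 for 3 against 4 libraries) and 5.05 without both replicate 4 libraries. The cause of these shifts was not tested. A single fragment per kilobase was worth 0.02125 to 0.02495 FPKM, against a lowest subunit value of 16.3 FPKM, so the number of libraries limits precision more than depth does.

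The 51 named genes, none of which was called with all libraries and no covariate, gave 58 changes of sign in 22 alternatives. The proliferation covariate gave 20 of these: Ndufa1 −0.31, Ndufa9 −0.0029, Ndufb3 −0.071, Ndufa12 −0.027, Sdhc −0.16, Uqcrq −0.039, Uqcr10 −0.24, Uqcr11 −0.013, Cox6a1 −0.055, Cox6c −0.28, Cox7b −0.22, Cox8a −0.16, Ndufa4 −0.23, Cox7a2l −0.0070, Atp5a1 −0.099, Atp5b −0.10, Atp5g2 −0.20, Sdhaf4 −0.17, Tmem70 −0.047 and Tfb1m −0.14. Under median-of-ratios scaling the log2 changes were −0.13 for Atp5g2 and −0.096 for Cox7a2l, and after quantile normalization −0.072 and −0.088, with Sdhaf3 at −0.021. Array weights gave Cox6c −0.30, Cox7b −0.12, Ndufa1 −0.096, Ndufa4 −0.021, Atp5g2 −0.22, Cox7a2l −0.23 and Sdhaf4 −0.15. The B cell covariate gave Cox6c −0.038, Cox7b −0.031, Ndufa1 −0.095, Atp5g2 −0.073 and Sdhaf4 −0.0056. The sex covariate gave Cox7a2l −0.081 and Sdhaf4 −0.11. Without replicate 4 of both groups the values were Cox6c −0.30, Cox7b −0.13, Cox8a −0.040, Ndufa1 −0.19, Ndufa4 −0.12, Ndufb3 −0.042, Atp5g2 −0.25, Cox7a2l −0.24, Sdhaf4 −0.19, Tmem70 −0.026 and Uqcr10 −0.064. Without 1 library they ran from −0.14 to 0.42 for Cox6c, −0.21 to 0.21 for Atp5g2, −0.27 to 0.21 for Cox7a2l and −0.036 to 0.36 for Sdhaf4.

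Replicate numbers 1, 2 and 4 occur in both groups, and deviations from the group means correlated by 0.16, 0.047 and −0.12 between libraries of the same number, so the numbers are not taken to pair libraries. With a replicate block 0 of all genes were called, and the subunit median was 0.55.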
